A study of Mus musculus with 5 samples.

Results

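The 50 genes described here encode the proteins that license, fire and copy replication origins in mouse cells and that make the deoxynucleotides for it. They were taken by gene symbol from a table of 21835 genes measured by RNA sequencing in 5 samples of murine lung cancer-associated fibroblasts (CAFs), and all 50 were expressed highly enough to be tested. The CAF-vec group (2 samples, genotype given as WT control) carried the empty lentiviral vector. The CAF-200 group (3 samples, genotype given as miR-200 overexpression) carried a lentivirus with miR-200b, miR-200a and miR-429 as 1 cluster. Per the labels, all 5 samples were the same cultured CAF line, grown in alpha-MEM with 10% FBS and selected with G418, and no age, strain or clone was given. No source used here says that the samples came from separate cultures, so *p* values measure the spread between these samples, which may be technical. Values are in CPM, counts per a fixed total that the authors made nearly the same in every sample, so the depth of each sample is unknown.

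Before S phase, the origin recognition complex (ORC), CDC6 and CDT1 load the ring of MCM2-7 onto DNA, a step called licensing that geminin blocks once S phase has begun. CDC45 and the GINS complex then turn the ring into an active helicase, DNA polymerases alpha, delta and epsilon copy both strands, and ribonucleotide reductase, thymidylate synthase and thymidine kinase supply the precursors. In cycling fibroblasts many of these genes are transcribed most at the passage from G1 to S under E2F transcription factors, whereas a miR lowers its targets by pairing bases 2 to 8 of its mature strand, the seed, with the 3′ untranslated region (UTR) of an mRNA.

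The overexpressed cluster holds 3 miRs with 2 seeds, shown because the matches searched in the 50 genes derive from them. The mature sequences are those of RefSeq (GRCm38.p6), with the seed in capitals, and miR-200b and miR-429 share theirs.
mmu-miR-200b-3p: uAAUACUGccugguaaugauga
mmu-miR-429-3p: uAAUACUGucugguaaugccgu
mmu-miR-200a-3p: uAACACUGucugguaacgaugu

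*Zeb1*, an EMT transcription factor and a known target of miR-200, was at 43.5 and 50.7 CPM in CAF-vec and at 37.8, 37.5 and 34.1 CPM in CAF-200. All CAF-200 samples lay below both CAF-vec samples, with a log2 fold-change of -0.36 (standard error (SE) 0.107, limma adjusted *p* = 0.0504). *Zeb2*, its relative, was at 46.2 and 29.8 CPM in CAF-vec and at 31.9, 31.8 and 31.1 CPM in CAF-200, so the groups overlapped (log2 fold-change -0.23, limma adjusted *p* = 0.374). Leaving out CAF-vec replicate 1 turned its log2 fold-change to 0.0828, and without CAF-vec replicate 2 it was called, at -0.54, whereas *Zeb1* was called without CAF-vec replicate 1 alone, at -0.47. Over the 12175 genes tested, the SD of the log2 difference was 0.490 within the CAF-vec pair and 0.192 to 0.204 within the CAF-200 pairs. By these values the controls were the less alike. In the table, 6127 genes were listed at 0 in all CAF-200 samples and none in only some of them, whereas 1205 were at 0 in 1 of the 2 CAF-vec samples. The epithelial marker *Cdh1* was at 0.00015 CPM in CAF-200 replicate 2, far below the commonest low value of that sample, 0.0105 CPM. The processing behind this is not stated. The CAF-200 spread, and the SEs and *p* values that rest on it, may therefore be smaller than between separately processed samples. Of 12 fibroblast markers, 11 were tested, and their summed level was 17338 and 13509 CPM in CAF-vec, whereas CAF-200 samples had 11467 to 12403 CPM. Of the 11, 6 had a positive and 5 a negative log2 fold-change. *Col1a1* was at 4613 and 2003 CPM in CAF-vec and between 1543 and 1719 CPM in CAF-200, and *Fap* was below 0.4 CPM in every sample. *Acta2* was at 92.8 and 126 CPM in CAF-vec and at 661, 653 and 706 CPM in CAF-200 (log2 fold-change 2.63). *Dcn* (2.75), *Lum* (2.82) and *Thy1* (1.46) also rose in CAF-200. The study, in contrast, reports less α-SMA, the protein of *Acta2*, by staining, and lower mRNA of most CAF markers by RT-qPCR. The reason for this difference was not tested. The 8 epithelial markers summed to at most 0.452 CPM in any sample with 3 of them at 0 throughout, the 8 endothelial markers to 1.06 and 0.497 CPM in CAF-vec and 1.70, 1.70 and 1.22 CPM in CAF-200 with 2 at 0, and the 8 leukocyte markers to 8.34 and 9.40 CPM in CAF-vec and, with CAF-200, to 12.2 to 12.9 CPM, also with 3 at 0. *Egfl7*, the only endothelial marker tested, was at 0 and 0.330 CPM in CAF-vec and at 1.47, 1.19 and 0.718 CPM in CAF-200 (limma adjusted *p* = 0.0270). Of the leukocyte markers, *Adgre1* was at 0 in every sample, *Ptprc* did not exceed 0.0404 CPM, and of the 3 tested, *Lyz2* rose from 1.11 and 1.99 to 6.48 to 7.48 CPM, whereas *Cd68* (log2 fold-change -0.14) and *Csf1r* (-0.46) were not called and their groups overlapped. The part of these marker differences in the results that follow was not tested.

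Of the 50 replication and nucleotide supply mRNAs, 29 were higher in CAF-200 than in CAF-vec at an adjusted *p* under 0.01 and 0 were lower (limma on log2(CPM + 0.5), Benjamini-Hochberg adjustment over all 12175 genes tested). This is 58% of the genes, beside 4.45% of all genes tested that were higher and 5.57% that were lower at that threshold. With a log2 fold-change beyond 1 as well, 10 of the 50 were higher (2.37% of all genes tested), namely *Rrm2*, *Cdc6*, *Rfc3*, *Cdc45*, *Pola1*, *Pcna*, *Prim1*, *Pole*, *Gins1* and *Gmnn*. At an adjusted *p* under 0.05, 42 were higher and 0 lower (11.9% of all genes tested were higher). The unadjusted *p* was under 0.05 in 46. In 48 genes every CAF-200 sample lay above both CAF-vec samples, which 24.3% of all genes tested did, and *Orc3* and *Pold1* were the 2 whose groups overlapped. The median log2 fold-change of the 50 genes was 0.77 (range -0.00086 to 1.65), whereas that of all genes tested was -0.09. Because bulk RNA was measured, a larger share of cells in S phase and more of these mRNAs per cell cannot be told apart. In cell counts, the study reports a marginal decrease in the growth of CAF-200. How that bears on these mRNAs was not tested.

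The summed level of the 50 mRNAs was 2978 and 2630.2 CPM in CAF-vec and 5039, 4726 and 4877 CPM in CAF-200. All CAF-200 sums exceeded both CAF-vec sums, and CAF-vec replicate 2 was the lowest sample. The calls at an adjusted *p* under 0.01 depended on having all 3 CAF-200 samples. Without any 1 of them, limma called 0 of the 50 at that threshold, although 42 to 44 had an unadjusted *p* under 0.05 and 27, 28 and 20 an adjusted *p* under 0.05 without CAF-200 replicate 1, 2 and 3, respectively. Without CAF-vec replicate 1 or replicate 2, 47 and 44 of the 50 were called higher, a fit in which the remaining CAF-vec sample is assumed to vary like the CAF-200 samples. *Orc3*, *Orc4* and *Dbf4* were not called without replicate 1. Without replicate 2, *Cdt1*, *Gins4*, *Lig1*, *Orc2* and *Rfc2* were not called and *Pold1* was called lower.

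**Figure D1:**
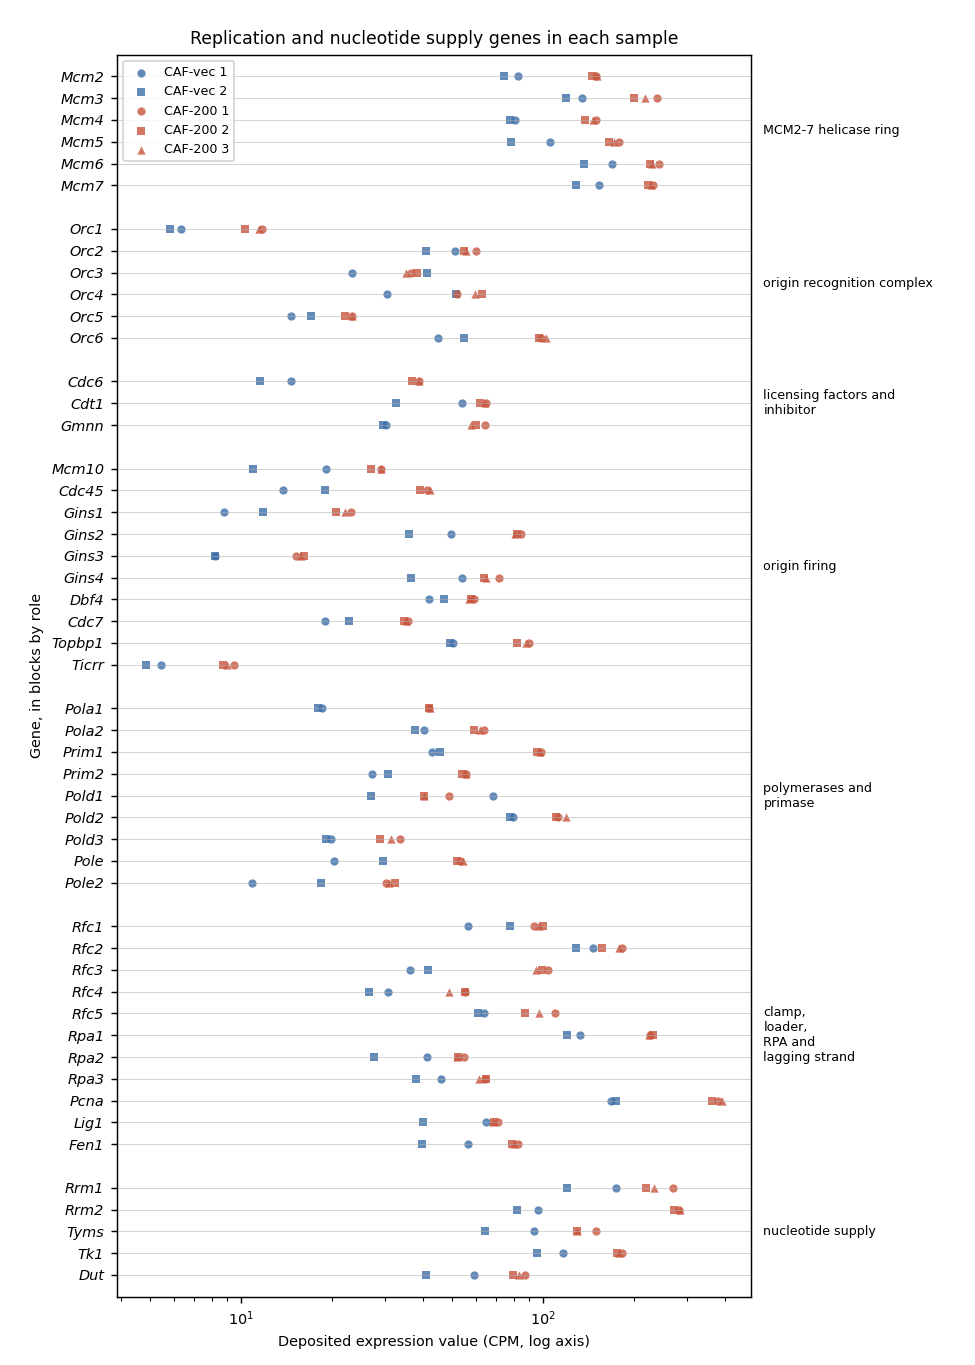
Deposited value of each of the 50 genes in each sample, in CPM on a log axis, with genes in blocks by role, CAF-vec samples in blue and CAF-200 samples in red, and circles, squares and triangles for replicates 1, 2 and 3. The red points lie to the right of both blue points in 48 genes, and not in *Orc3* and *Pold1*.

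**Figure D2:**
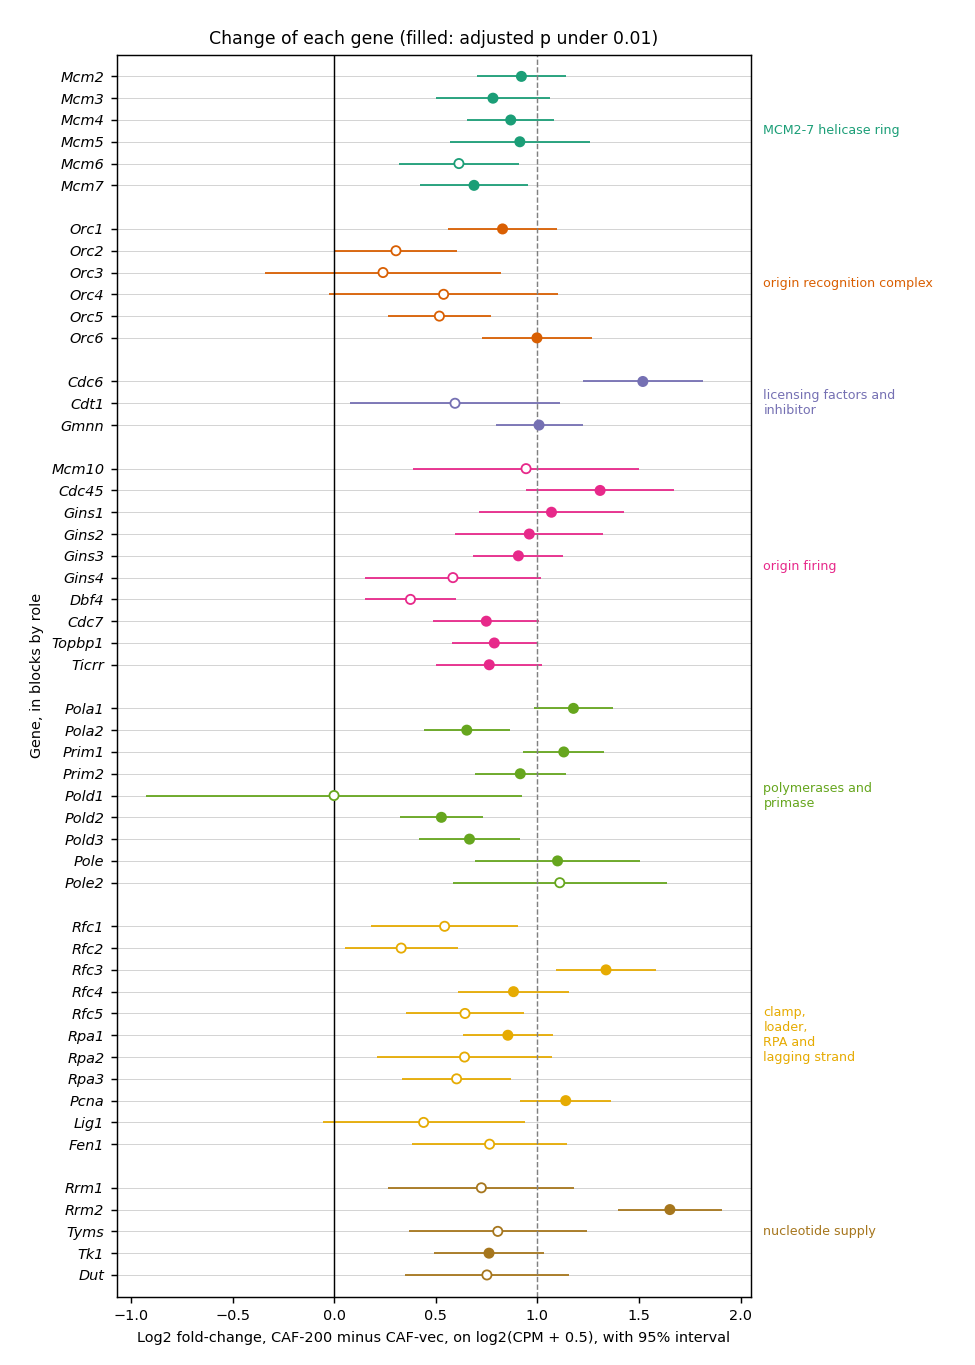
Log2 fold-change of each gene (CAF-200 minus CAF-vec, on log2(CPM + 0.5)) with its 95% interval from limma, where filled points mark an adjusted *p* under 0.01 and the dashed line a log2 fold-change of 1. The 29 filled points occur in every role group, and the widest interval is that of *Pold1*.

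The 5′ ends of the genes were examined for E2F-type motifs, since the genes move together and E2F sites are the element best known for G1/S promoters. RefSeq windows of 250 bases before to 50 bases after a transcription start (GRCm38.p6) were found for 42 of the 50 genes. The motifs searched were TTTCCCGC, TTTGGCGC, TTTCGCGC and TTTGCCGC on both strands, and 16 of the 42 genes (38.1%) held at least 1 of them, whereas 458 of 9550 tested genes with a window (4.8%) did. Per window, the share was 31.4% against 3.9%. CCAAT on either strand was found in 24 of the 42 genes (57.1%) and in 43.7% of the tested genes. Among the 42 genes, the median log2 fold-change was 0.78 in the 16 with an E2F-type match and 0.76 in the 26 without. A match to these letters is a description and not a binding site, and a window without one says nothing of the factor.

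The following windows are printed 5′ to 3′ on the strand of the gene, with the E2F-type matches in capitals. *Mcm6* had the most matches (3), *Cdc6*, *Pola1* and *Rfc3* were past both thresholds and held matches, and *Rrm2*, the gene with the largest change, held none. *Cdc45*, *Pcna* and *Prim1*, also past both thresholds and with a window, held none either. The first bases of the *Mcm6* matches lie at -110, -106 and -47 from the start, and the first pair shares bases on opposite strands. The match of *Cdc6* begins at -138, that of *Pola1* at -138, and those of *Rfc3* at -10 and 1. All are counted from the RefSeq start, which can differ from that of GENCODE. The *Cdc6* window lies wholly within the gene as GENCODE places it (chr11:98907801-98923940), so its match lies downstream of that 5′ end.
*Mcm6*, chr1:128359656-128359955, minus strand: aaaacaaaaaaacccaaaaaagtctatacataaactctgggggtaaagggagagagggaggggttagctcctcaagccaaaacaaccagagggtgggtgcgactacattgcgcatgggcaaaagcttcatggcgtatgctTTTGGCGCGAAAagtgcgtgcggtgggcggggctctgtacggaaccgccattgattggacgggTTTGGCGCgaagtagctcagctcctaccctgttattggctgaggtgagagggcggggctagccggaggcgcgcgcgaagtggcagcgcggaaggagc
*Cdc6*, chr11:98907901-98908200, plus strand: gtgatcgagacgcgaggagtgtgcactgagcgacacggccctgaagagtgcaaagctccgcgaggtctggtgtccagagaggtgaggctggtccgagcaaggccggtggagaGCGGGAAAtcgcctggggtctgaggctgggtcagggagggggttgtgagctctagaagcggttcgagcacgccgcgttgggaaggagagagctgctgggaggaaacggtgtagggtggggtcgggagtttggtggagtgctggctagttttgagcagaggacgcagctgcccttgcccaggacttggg
*Pola1*, chrX:93632106-93632405, minus strand: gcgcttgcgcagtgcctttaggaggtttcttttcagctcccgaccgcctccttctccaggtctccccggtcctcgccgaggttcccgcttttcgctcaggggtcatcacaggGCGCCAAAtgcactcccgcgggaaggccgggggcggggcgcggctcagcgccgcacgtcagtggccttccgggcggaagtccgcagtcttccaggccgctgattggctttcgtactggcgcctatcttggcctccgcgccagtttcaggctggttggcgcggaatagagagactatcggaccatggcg
*Rfc3*, chr5:151651159-151651458, minus strand: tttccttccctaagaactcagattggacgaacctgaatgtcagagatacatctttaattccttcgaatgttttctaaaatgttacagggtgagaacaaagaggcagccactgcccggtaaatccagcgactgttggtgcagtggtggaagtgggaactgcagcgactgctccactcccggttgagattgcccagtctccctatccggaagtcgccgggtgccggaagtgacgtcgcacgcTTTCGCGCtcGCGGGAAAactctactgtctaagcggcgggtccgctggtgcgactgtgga
*Rrm2*, chr12:24708004-24708303, plus strand: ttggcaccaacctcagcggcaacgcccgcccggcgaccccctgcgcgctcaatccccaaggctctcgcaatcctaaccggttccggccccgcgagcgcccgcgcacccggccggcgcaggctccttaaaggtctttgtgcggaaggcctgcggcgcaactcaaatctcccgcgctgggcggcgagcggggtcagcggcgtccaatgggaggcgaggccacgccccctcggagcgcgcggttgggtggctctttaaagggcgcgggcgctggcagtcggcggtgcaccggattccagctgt

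A match to either miR-200 seed occurred in the 3′ UTRs of 10 of the 50 genes. In the longest annotated 3′ UTR of each gene (GENCODE M21), CAGTATT, which pairs with the seed shared by miR-200b and miR-429, occurred in 5 of the 50 genes (10.0%) and in 16.5% of 12098 tested genes. CAGTGTT, which pairs with the seed of miR-200a, occurred in 5 other genes (*Orc4*, *Ticrr*, *Pold3*, *Rpa1* and *Fen1*, 10.0%) and in 22.0% of tested genes. The 3′ UTRs of the 50 genes were also shorter, with a median of 625 bases against 1351 bases, and 40 of the 50 held neither match. The part of this length difference in the lower shares was not tested. The 5 sites for miR-200b and miR-429 are shown with 10 bases on each side and the match in capitals, as DNA letters, because they include the gene with the largest rise. The log2 fold-changes of their genes were 1.65 (*Rrm2*), 0.87 (*Mcm4*), 0.75 (*Cdc7*), 0.72 (*Rrm1*) and 0.54 (*Rfc1*), and none of the 5 was lower in CAF-200. Over the 12098 tested genes, the median log2 fold-change was -0.045 with CAGTATT and -0.105 without it. For CAGTGTT these medians were -0.080 and -0.100, so genes with a match were not the lower ones in the table as a whole either.
*Mcm4*: gtctgaaaggCAGTATTccactatata
*Cdc7*: ttctttttctCAGTATTtttttctcac
*Rfc1*: ggttggattaCAGTATTcagcagttct
*Rrm1*: acacataatgCAGTATTtgcacttgta
*Rrm2*: ttttaatgctCAGTATTatcttgaagt

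**Figure D3:**
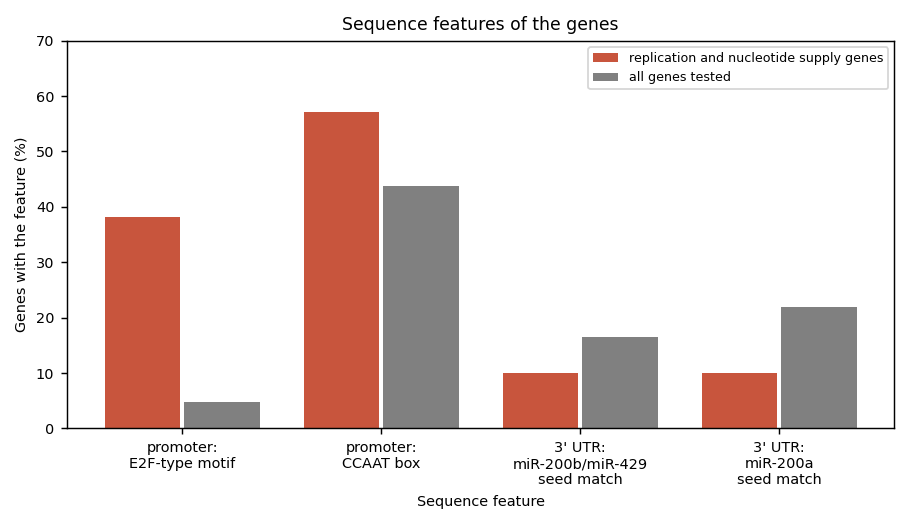
Share of genes (percent, from 0) with an E2F-type motif or CCAAT box in the promoter window, and with a 7-base match to either miR-200 seed in the longest 3′ UTR, for the 50 genes in red (42 for the promoter features) and for all tested genes with the same annotation in grey. The E2F-type share was 38.1% against 4.8%, and both seed shares were 10.0%, against 16.5% and 22.0%.

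Of the 6 subunits of the MCM2-7 ring, the replicative helicase, 5 were higher at an adjusted *p* under 0.01 and 0 passed a log2 fold-change of 1. The median log2 fold-change was 0.82, with a range of 0.61 to 0.92. Their summed level was 726 and 616 CPM in CAF-vec and 1191, 1099 and 1145 CPM in CAF-200. *Mcm2* (ENSMUSG00000002870) had the largest change, from 82.4 and 74.6 CPM (mean 78.5 ± 5.57, SD, n = 2) to 150.0, 145 and 152 CPM (149 ± 3.23, n = 3), a log2 fold-change of 0.92 (SE 0.0884, limma adjusted *p* = 0.00321). *Mcm6* (ENSMUSG00000026355) had the smallest, with 169 and 136 CPM (153 ± 23.4, n = 2) in CAF-vec and 242, 227 and 230.2 CPM (233 ± 7.83, n = 3) in CAF-200, giving a log2 fold-change of 0.61 (SE 0.119, limma adjusted *p* = 0.0160). The groups did not overlap for either gene, and *Mcm6* was the only subunit of the ring not called at an adjusted *p* under 0.01. The other subunits had log2 fold-changes of 0.91 (*Mcm5*), 0.87 (*Mcm4*), 0.78 (*Mcm3*) and 0.69 (*Mcm7*). Per kilobase of the transcript with the longest coding sequence, the level of the most abundant subunit exceeded that of the least abundant 2.59- and 2.17-fold in CAF-vec and 1.98-, 2.03- and 1.93-fold in CAF-200.

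ORC, which marks origins and recruits the loading factors, was mixed. Of its 6 subunits, 2 rose at an adjusted *p* under 0.01, and the median log2 fold-change was 0.53. *Orc6* (ENSMUSG00000031697), the small subunit, was at 45.0 and 54.7 CPM (49.8 ± 6.83, n = 2) in CAF-vec and at 98.9, 97.3 and 102 CPM (99.5 ± 2.68, n = 3) in CAF-200, giving a log2 fold-change of 1.00 that stayed just under the threshold of 1 (SE 0.109, limma adjusted *p* = 0.00410). *Orc1*, the largest subunit and an ATPase, was at 6.34 and 5.83 CPM in CAF-vec and at 11.8, 10.3 and 11.5 CPM in CAF-200 (log2 fold-change 0.83, limma adjusted *p* = 0.00605). For both, every CAF-200 sample was well above both CAF-vec samples. The other 4 subunits, of the stable core, were not called at that threshold. *Orc5* had a log2 fold-change of 0.52 (limma adjusted *p* = 0.0167), *Orc4* one of 0.54 (adjusted *p* = 0.123) and *Orc2* one of 0.30 (adjusted *p* = 0.110). *Orc3* (ENSMUSG00000040044, chr4:34570796-34614944) had the smallest, with 23.3 and 41.3 CPM (32.3 ± 12.7, n = 2) in CAF-vec and 36.6, 38.4 and 35.3 CPM (36.8 ± 1.53, n = 3) in CAF-200, giving a log2 fold-change of 0.24 (SE 0.235, 95% interval -0.34 to 0.82, limma adjusted *p* = 0.459). The CAF-200 samples lay between the CAF-vec samples, and without CAF-vec replicate 1 or 2 the log2 fold-change was -0.17 and 0.65 for *Orc3*, 0.17 and 0.91 for *Orc4*, and 0.46 and 0.14 for *Orc2*, with the larger value of each called.

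Of the licensing factors, *Cdc6* and the licensing inhibitor *Gmnn* rose past both thresholds, whereas *Cdt1* was not called. *Cdc6* (ENSMUSG00000017499, chr11:98907801-98923940), which loads the helicase with ORC, was at 14.6 and 11.6 CPM (13.1 ± 2.14, n = 2) in CAF-vec and at 38.8, 36.9 and 39.0 CPM (38.2 ± 1.11, n = 3) in CAF-200, giving a log2 fold-change of 1.52 (SE 0.120, limma adjusted *p* = 0.00254). *Gmnn* (ENSMUSG00000006715, chr13:24751845-24761923), which encodes geminin, was at 30.2 and 29.6 CPM (29.9 ± 0.440, n = 2) in CAF-vec and at 64.1, 60.0 and 58.0 CPM (60.7 ± 3.12, n = 3) in CAF-200, giving a log2 fold-change of 1.01 (SE 0.0866, limma adjusted *p* = 0.00281). The 3 CAF-200 values of each gene lay close together and far above CAF-vec. *Cdt1* (ENSMUSG00000006585), the partner of CDC6 that geminin binds, had CAF-vec values 0.72 apart on the log2 scale, at 54.1 and 32.7 CPM (43.4 ± 15.2, n = 2), and was at 65.0, 61.9 and 64.5 CPM (63.8 ± 1.67, n = 3) in CAF-200. All its CAF-200 values exceeded the CAF-vec values, but the log2 fold-change of 0.59 had an SE of 0.209 (limma adjusted *p* = 0.0801), and it was 0.95, then called, without CAF-vec replicate 1 and 0.23 without CAF-vec replicate 2.

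Among the 10 genes of origin firing, 7 rose at an adjusted *p* under 0.01 and 2 passed both thresholds, with a median log2 fold-change of 0.85. Their summed level was 270.2 and 246 CPM in CAF-vec and 459, 432 and 444 CPM in CAF-200. *Cdc45* (ENSMUSG00000000028, chr16:18780447-18811987), the helicase activator, was at 13.8 and 19.0 CPM (16.4 ± 3.69, n = 2) in CAF-vec and at 41.2, 39.1 and 42.2 CPM (40.9 ± 1.59, n = 3) in CAF-200, giving a log2 fold-change of 1.31 (SE 0.147, limma adjusted *p* = 0.00434). *Gins1* (ENSMUSG00000027454, chr2:150905400-150931280), a subunit of GINS, was at 8.81 and 11.8 CPM (10.3 ± 2.13, n = 2) in CAF-vec and at 23.2, 20.7 and 22.1 CPM (22.0 ± 1.25, n = 3) in CAF-200, giving a log2 fold-change of 1.07 (SE 0.144, limma adjusted *p* = 0.00657). Neither gene's groups overlapped, and in both the lower CAF-vec value was that of replicate 1. The GINS partners *Gins2* and *Gins3* rose by log2 fold-changes of 0.96 and 0.91, and *Gins4* had one of 0.58 that was not called (limma adjusted *p* = 0.0532) and was 0.86, then called, without CAF-vec replicate 1 and 0.30 without CAF-vec replicate 2. The kinase *Cdc7* rose (0.75), whereas its activating subunit *Dbf4* (ENSMUSG00000002297) had the smallest change of the group, with 41.9 and 47.1 CPM (44.5 ± 3.70, n = 2) in CAF-vec and 59.0, 57.6 and 56.8 CPM (57.8 ± 1.13, n = 3) in CAF-200, giving a log2 fold-change of 0.38 (SE 0.0900, limma adjusted *p* = 0.0287). *Topbp1* (0.79) and *Ticrr* (0.76), which bring CDC45 to the ring, rose, and *Mcm10* had a log2 fold-change of 0.94 with CAF-vec values of 19.1 and 11.0 CPM and was not called (limma adjusted *p* = 0.0282). *Dbf4* and *Mcm10* were higher at an adjusted *p* under 0.05, and *Mcm10* was called without either CAF-vec sample, at 1.33 without replicate 1 and 0.56 without replicate 2.

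All 4 subunits of the polymerase alpha-primase complex, which lays down the primers, rose at an adjusted *p* under 0.01. *Pola1* (ENSMUSG00000006678, chrX:93304767-93632155), its catalytic subunit, was at 18.6 and 18.0 CPM (18.3 ± 0.418, n = 2) in CAF-vec and at 41.9, 41.8 and 42.4 CPM (42.0 ± 0.332, n = 3) in CAF-200, giving a log2 fold-change of 1.18 (SE 0.0794, limma adjusted *p* = 0.00186). *Prim1* (ENSMUSG00000025395, chr10:128015168-128030037), the primase, was at 43.0 and 45.6 CPM (44.3 ± 1.80, n = 2) in CAF-vec and at 98.5, 95.9 and 98.1 CPM (97.5 ± 1.42, n = 3) in CAF-200, giving a log2 fold-change of 1.13 (SE 0.0803, limma adjusted *p* = 0.00198). The replicates of both genes differed little in either group. The partner subunits *Prim2* and *Pola2* rose by log2 fold-changes of 0.92 and 0.65. Of polymerase epsilon, the leading-strand enzyme, *Pole* (ENSMUSG00000007080, chr5:110286306-110337474) was at 20.3 and 29.6 CPM (25.0 ± 6.63, n = 2) in CAF-vec and at 53.3, 51.9 and 54.2 CPM (53.1 ± 1.15, n = 3) in CAF-200, giving a log2 fold-change of 1.10 (SE 0.165, limma adjusted *p* = 0.00838). *Pole2* had nearly the same log2 fold-change, 1.11, but CAF-vec values of 10.9 and 18.3 CPM and an adjusted *p* of 0.0155 (limma). In both epsilon genes the lower CAF-vec value was again that of replicate 1.

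Of polymerase delta, which copies the lagging strand, the accessory subunits *Pold2* and *Pold3* rose by log2 fold-changes of 0.53 and 0.67. The catalytic subunit *Pold1* (ENSMUSG00000038644, chr7:44532746-44548849) was at 68.3 and 26.9 CPM (47.6 ± 29.2, n = 2) in CAF-vec and at 48.7, 40.2 and 40.3 CPM (43.1 ± 4.86, n = 3) in CAF-200. Its CAF-vec values lay on either side of all CAF-200 values. The log2 fold-change of -0.00086, the only negative one of the 50, had an SE of 0.375 and a 95% interval of -0.93 to 0.93 (limma adjusted *p* = 0.999), and it was 0.12 with quantile normalization. It was 0.66 without CAF-vec replicate 1 and -0.66 without CAF-vec replicate 2, both past the threshold in opposite directions. The difference between its CAF-vec samples was 1.33 on the log2 scale, whereas the median difference was 0.26 over the 50 genes and 0.28 over all genes tested.

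**Figure D4:**
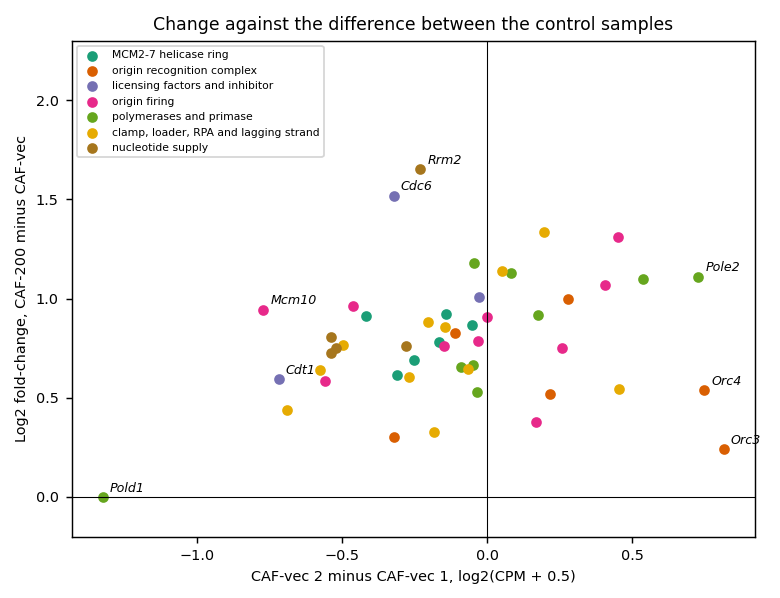
Log2 fold-change of each of the 50 genes (CAF-200 minus CAF-vec) against the difference between its CAF-vec samples (replicate 2 minus replicate 1), both on log2(CPM + 0.5) and colored by role. *Pold1* lies far to the left at a fold-change near 0 and *Orc3* and *Orc4* far to the right. CAF-vec replicate 2 was the lower one in 35 of the 50 genes and in 6749 of all 12175 genes tested.

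Of the 11 genes for the clamp, its loader, single-strand binding and lagging-strand joining, 4 rose at an adjusted *p* under 0.01 and 9 at an adjusted *p* under 0.05, with a median log2 fold-change of 0.64. *Pcna* (ENSMUSG00000027342, chr2:132249162-132253314), the sliding clamp, was at 168 and 175 CPM (172 ± 4.40, n = 2) in CAF-vec and at 381, 363 and 392 CPM (379 ± 14.8, n = 3) in CAF-200, giving a log2 fold-change of 1.14 (SE 0.0903, limma adjusted *p* = 0.00254). Per kilobase of transcript *Pcna* had the highest level of the 50 genes in every sample, at 111 and 115 CPM in CAF-vec and 251, 239 and 258 CPM in CAF-200. *Rfc3* (ENSMUSG00000033970, chr5:151642756-151651242), a clamp loader subunit, was at 36.3 and 41.7 CPM (39.0 ± 3.80, n = 2) in CAF-vec and at 104, 99.0 and 94.7 CPM (99.2 ± 4.58, n = 3) in CAF-200, giving a log2 fold-change of 1.34 (SE 0.0995, limma adjusted *p* = 0.00235). The other loader subunits had smaller log2 fold-changes. *Rfc4* rose by a log2 fold-change of 0.88, *Rfc5* and *Rfc1* had ones of 0.64 and 0.54 (limma adjusted *p* = 0.0138 and 0.0397), and *Rfc2* (ENSMUSG00000023104) the smallest of the group. *Rfc2* was at 146 and 129 CPM (137 ± 12.5, n = 2) in CAF-vec and at 183, 157 and 179 CPM (173 ± 13.6, n = 3) in CAF-200, giving a log2 fold-change of 0.33 (SE 0.112, limma adjusted *p* = 0.0742), which was called, at 0.42, without CAF-vec replicate 1 alone. Its groups did not overlap, but CAF-200 replicate 2 was near CAF-vec replicate 1. Of the single-strand binding complex, *Rpa1* rose (0.85), and *Rpa2* and *Rpa3* had log2 fold-changes of 0.64 and 0.60 (limma adjusted *p* = 0.0408 and 0.0128). *Fen1*, the flap nuclease, had one of 0.76 (limma adjusted *p* = 0.0177) and the ligase *Lig1* one of 0.44 (adjusted *p* = 0.145). *Lig1* was called without CAF-vec replicate 1, at 0.78, and not without CAF-vec replicate 2, at 0.096. *Rfc1* (0.32 and 0.77) and *Rpa2* (0.93 and 0.35) were called without either.

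In nucleotide supply, the small subunit of ribonucleotide reductase, *Rrm2*, changed more than any other of the 50 genes. *Rrm2* (ENSMUSG00000020649, chr12:24708241-24714146) was at 96.2 and 81.9 CPM (89.0 ± 10.1, n = 2) in CAF-vec and at 283, 272 and 286 CPM (280.1 ± 7.49, n = 3) in CAF-200, giving a log2 fold-change of 1.65 (SE 0.104, limma adjusted *p* = 0.00145). Every CAF-200 value was far above both CAF-vec values, a ratio of means of 3.15. The large subunit *Rrm1* (ENSMUSG00000030978) had the smallest change of the group, with 175 and 120.3 CPM (148 ± 38.6, n = 2) in CAF-vec and 270.0, 219.9 and 232 CPM (241 ± 26.1, n = 3) in CAF-200, giving a log2 fold-change of 0.72 (SE 0.185, limma adjusted *p* = 0.0344). Thymidine kinase, *Tk1*, rose by a log2 fold-change of 0.76 (limma adjusted *p* = 0.00771). Thymidylate synthase, *Tyms*, and the dUTPase *Dut* had log2 fold-changes of 0.80 and 0.75 (adjusted *p* = 0.0224 and 0.0216). Of the 5 genes, 2 were thus called at an adjusted *p* under 0.01 and all at an adjusted *p* under 0.05, and CAF-vec replicate 2 was the lower control in each. *Rrm1*, *Tyms* and *Dut* were called without either CAF-vec sample, at log2 fold-changes of 0.99, 1.07 and 1.01 without replicate 1 and 0.46, 0.54 and 0.49 without replicate 2.

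The 50 genes lie on 15 chromosomes. Exons of 14 of them share bases with another gene of the table, the longest stretches being 2758 bases of *Gins2* with *Gse1*, 1150 of *Orc2* with *Nif3l1* and 952 of *Rfc2* with *Lat2*, and for *Pole2* the other gene (*Gm49384*) is on the same strand. Whether counting used the strand of the libraries is not given in the sources used here, so values of these genes are uncertain to that extent. *Topbp1*, *Pcna* and *Tyms* have annotated pseudogenes named after them, which can take some of their reads.

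Of 155 genes in 7 other lists that work beside these 50, 42 rose and 1 fell at an adjusted *p* under 0.01. Of 21 other replisome and fork genes, 6 rose and 0 fell at an adjusted *p* under 0.01, with a median log2 fold-change of 0.69. *Pold4*, the small subunit of polymerase delta, rose from 50.1 and 60.7 CPM to 182, 193 and 193 CPM (log2 fold-change 1.77, limma adjusted *p* = 0.00145), and *Atad5*, which unloads the clamp, by 1.10. The lowest were *Rnaseh2c* (-0.09) and *Top1* (0.20), neither called. Of 12 genes of chromatin assembly behind the fork, 3 rose and 0 fell (median 0.59), led by *Hells* (1.05) and *Nasp* (0.93), with *Supt16* (-0.12) and *Tonsl* (0.25) lowest and not called.

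Of 30 other nucleotide synthesis genes, 7 rose and 0 fell, and the median log2 fold-change was 0.29. *Dck*, deoxycytidine kinase, rose from 22.3 and 27.5 CPM to 63.6, 64.0 and 68.5 CPM (log2 fold-change 1.38). *Ctps2* (-0.41) and *Cmpk1* (-0.29), of pyrimidine nucleotide synthesis, were the lowest and were not called. This list reached lower values than the 5 genes of nucleotide supply among the 50, whose log2 fold-changes were all 0.72 or above.

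Of 19 E2F, pocket protein and DREAM genes, which control the G1/S program, 5 rose and 0 fell (median 0.44). *E2f8* and *Mybl2* had the highest log2 fold-changes, 1.47 and 1.16, both called, and *Lin37* (-0.24) and *Rbl2* (-0.11) the lowest. *E2f1* was at 47.4 and 36.2 CPM in CAF-vec and at 52.3, 45.7 and 50.6 CPM in CAF-200, so its groups overlapped (log2 fold-change 0.25, limma adjusted *p* = 0.213), and it was 0.44, then called, without CAF-vec replicate 1 and 0.058 without CAF-vec replicate 2. *E2f3* was called with a log2 fold-change of 0.65, just inside the threshold (adjusted *p* = 0.00998).

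Of 17 G1/S cyclins, kinases and CDK inhibitors, 4 rose and 1 fell, with a median of -0.13. The E-type cyclins, which drive entry into S phase, rose, *Ccne2* from 7.35 and 11.0 CPM to 25.3, 31.4 and 36.4 CPM (log2 fold-change 1.72, limma adjusted *p* = 0.00575) and *Ccne1* from 26.8 and 27.5 CPM to 65.1, 61.8 and 67.8 CPM (1.24, adjusted *p* = 0.00194). *Cdkn2b*, which encodes the CDK4/6 inhibitor p15, fell from 75.3 and 59.4 CPM to 29.6, 32.2 and 25.2 CPM (log2 fold-change -1.20, limma adjusted *p* = 0.00570). *Cdk6* was at 20.1 and 7.83 CPM in CAF-vec and at 7.15, 5.17 and 5.30 CPM in CAF-200 (-1.05) and was not called (limma adjusted *p* = 0.0883), and the log2 fold-change of *Cdk6* was -0.40 without CAF-vec replicate 1 and -1.70, then called, without CAF-vec replicate 2. *Cdkn1a*, which encodes the inhibitor p21, was at 208 and 162 CPM in CAF-vec and at 222, 224 and 237 CPM in CAF-200 (0.31, adjusted *p* = 0.122), and it was 0.49, then called, without CAF-vec replicate 1 and 0.13 without CAF-vec replicate 2.

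Mitosis genes and repair genes were set beside the 50 as the lists of the cell cycle most like them. Of 30 mitosis genes, 4 rose and 0 fell at an adjusted *p* under 0.01, with a median log2 fold-change of 0.41, which is 13.3% called beside 58% of the 50 genes. At an adjusted *p* under 0.05, 16 of the 30 were higher and 1 lower, beside 42 and 0 of the 50 (11.9% of all genes tested were higher). Every CAF-200 sample lay above both CAF-vec samples in 21 of the 30, beside 48 of the 50 and 24.3% of all genes tested. *Mki67*, a marker of cycling cells, was at 36.4 and 54.3 CPM in CAF-vec and at 69.6, 71.1 and 69.1 CPM in CAF-200 (log2 fold-change 0.65, limma adjusted *p* = 0.0381). *Bub1* (1.14, adjusted *p* = 0.0110) and *Ube2c* (0.93) were the highest, and *Cenpa* (-0.44) and *Cdc20* (-0.32) the lowest, and none of these 5 was called. Of 26 homologous recombination and Fanconi genes, 13 rose and 0 fell, with a median of 0.87, which is 50% called. *Fancm* (1.31) and *Exo1* (1.27) rose most, and *Fance* (-0.61) and *Fancf* (-0.52) were lowest and not called. Whether these lists differ from the 50 genes was not tested.

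The counts of the other lists also turned on single libraries. Without any 1 of the CAF-200 samples, limma called 0 genes higher at an adjusted *p* under 0.01 in each of the 7 lists, with 5 to 20 higher in a list at an unadjusted *p* under 0.05. Without CAF-vec replicate 1 or 2, the mitosis list had 19 and 18 genes higher, homologous recombination and Fanconi genes 18 and 19, and other replisome and fork genes 16 and 16. Chromatin genes had 10 and 9, other nucleotide synthesis genes 19 and 11, E2F, pocket protein and DREAM genes 11 and 8, and G1/S genes 6 and 5. Several uncalled genes of these lists passed the threshold without a CAF-vec sample, and values are given without replicate 1 and then without replicate 2. *Mki67* (0.36 and 0.93), *Ube2c* (0.51 and 1.35) and *Bub1* (0.82 and 1.47) were called higher in both fits, and *Cenpa* (-0.40 and -0.48) was called lower in both. *Tonsl* (0.72 and -0.23) was called higher and *Ctps2* (-0.55 and -0.27) lower without replicate 1 alone. *Cdc20* (0.0059 and -0.65), *Cmpk1* (-0.12 and -0.47), *Fance* (-0.28 and -0.93), *Fancf* (-0.17 and -0.86), *Supt16* (0.088 and -0.33) and *Rnaseh2c* (0.27 and -0.45) were called lower without replicate 2 alone.

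**Figure D5:**
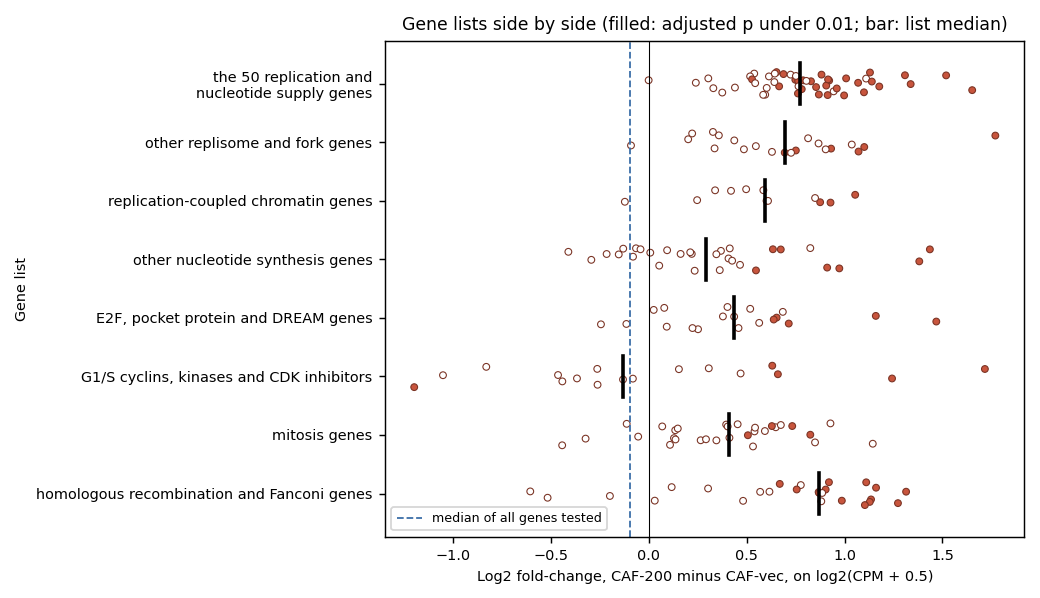
Log2 fold-change (CAF-200 minus CAF-vec) of every tested gene of the 50 and of 7 other lists, where filled points mark an adjusted *p* under 0.01, black bars the median of each list and the dashed line the median of all genes tested (-0.09). The medians are 0.77 for the 50 genes, 0.87 for homologous recombination and Fanconi genes, 0.41 for mitosis genes and -0.13 for G1/S regulators.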

How the data were processed

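Stranded mRNA libraries of 2 CAF-vec and 3 CAF-200 samples had been sequenced with paired ends. The authors deposited 1 table of CPM values for 21835 genes, named for TMM normalization, and the submitters' processing notes name FastQC, cutadapt, Trimmomatic, STAR, RSEM, edgeR and GRCm38/mm10 without versions. Columns summed to 999956 to 1000111 CPM. Low values were not multiples of 1 step (24.5% to 56.6% lay within 0.05 of a step), so whole reads were not recovered, no count test was run, and the depth is unknown.

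A gene entered the test if 2 or more samples had 0.5 CPM or above, which 12175 genes did. The 5 samples were fitted on log2(CPM + 0.5) without covariates by limma 3.58.1 (R 4.3.3), with lmFit and with eBayes set to a variance trend, and *p* values were adjusted by Benjamini-Hochberg over these genes. Fold-changes on that scale understate the change of low genes. A call needed an adjusted *p* under 0.01, and "past both thresholds" needed a log2 fold-change beyond 1 as well, which are the thresholds of the study. The fit was tested on simulated data.

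The 50 genes, the other lists and the tests were chosen with earlier results of these data known. Named with full statistics were the largest and smallest change of each role group and genes past both thresholds, and in other lists the 2 highest and 2 lowest plus 8 fixed genes, of which 1 result is not reported here. Positions, overlaps and 3′ UTRs came from GENCODE M21 (GRCm38), and promoter windows and miRs from RefSeq (GRCm38.p6), by a search in Python 3.11.15 with pandas 2.3.3. The labels and the methods of the study differ on the vector's resistance gene and the RNA kit. The labels and the sequencing methods name CAFs as the cells, and 1 sentence on the virus names lung fibroblasts. The methods give triplicate extraction, and 2 CAF-vec and 3 CAF-200 samples were analysed here.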

Additional observations from a re-analysis of the deposited data

How the results depend on the processing

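Under 2 other pseudocounts, at least 1 CPM in every sample, both other normalizations, robust empirical Bayes, no variance trend and an adjusted *p* under 0.05 (42 genes), the number of genes called higher stayed within 1.5 times the 29 reported. It was 17 without a filter, where more genes were tested. Without 1 sample at a time it ranged from 0 to 47. The number past both thresholds (10) was 16 with quantile normalization, 16 with median centring, 29 with a log2 fold-change beyond 0.5, and 0 to 14 without 1 sample at a time. The median log2 fold-change (0.77) was 0.873 with quantile normalization, 0.870 with centring and 0.701 to 0.866 without 1 sample at a time. Only replicates 1 and 2 share a number between groups, with correlations of deviations of 0.25 and 0.13. The deviations of 2 CAF-vec samples mirror each other, so these values cannot show whether samples were paired. CAF-vec replicate 2 and CAF-200 replicate 3, which share no number, had 0.12. CAF-200 replicate 3 leaves the fold-change under the replicate block, which gave 3 genes at an adjusted *p* under 0.01, 3 past both thresholds and 45 at an unadjusted *p* under 0.05. The direction changed for *Pold1*, at 0.00053 with a pseudocount of 0.1, 0.12 with quantile normalization, 0.096 with centring, 0.043 with the block, 0.66 without CAF-vec replicate 1, and 0.045 and 0.043 without CAF-200 replicate 2 or 3, and without CAF-vec replicate 2 it stayed negative and was called lower, at -0.66. It also changed for *Rnaseh2c*, at 0.015 with quantile normalization, 0.0057 with centring and 0.27 without CAF-vec replicate 1, and without CAF-vec replicate 2 it stayed negative and was called lower, at -0.45. Without CAF-vec replicate 1 or 2, respectively, the log2 fold-change was -0.17 and 0.65 for *Orc3*, 0.083 and -0.54 for *Zeb2*, 0.088 and -0.33 for *Supt16*, 0.0059 and -0.65 for *Cdc20*, and 0.72 and -0.23 for *Tonsl*. Over 84 named genes and their alternatives, 968 of 1260 comparisons kept their direction and side of the threshold, 195 lost the call, 82 gained it and 15 changed direction. The cause was not tested. With the depth unknown, no limit from counting can be given.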

Other observations

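Ratios between partners were computed per kilobase of the transcript with the longest coding sequence, for pairs chosen after their values were seen. The ratio of *Rrm2* to *Rrm1*, the subunits of ribonucleotide reductase, was 1.00 and 1.24 in CAF-vec and 1.91, 2.25 and 2.24 in CAF-200, without overlap. The ratio of *Cdc6* to *Orc1*, both ATPases of helicase loading, was 2.72 and 2.34 in CAF-vec and 3.88, 4.21 and 3.99 in CAF-200. The ratio of *Orc1* to the core subunit *Orc2* was 0.146 and 0.168 in CAF-vec and 0.231, 0.223 and 0.245 in CAF-200. The ratio of *Cdt1* to its inhibitor *Gmnn* was 0.922 and 0.568 in CAF-vec and 0.522, 0.531 and 0.573 in CAF-200, so that CAF-vec replicate 2 lay within the CAF-200 range.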
